A study of Mus musculus with 14 samples.

Results

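Bulk liver here means the 2 libraries that the labels title Liver bulk, 1 and 2, of the 14 libraries in the series. They were chosen by that title alone, and they are described without setting them against the other 12. Both came from mouse liver tissue of wild-type genotype (WT) with no treatment, and the series uses them as the control for leukocytes sorted from liver needle biopsies. Strain, age and sex are not given in the labels, nor is whether the libraries came from separate animals, so the spread between them may be technical. Total RNA was isolated on a column with DNase, copied to cDNA with the SMART-seq v4 kit for low RNA inputs and cut into libraries by a transposase. The deposited counts summed to 7605290 in library 1 and 8034138 in library 2, over 48794 genes of the mouse build GRCm38.

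The hepatocyte, the main cell of the liver, makes most proteins of blood plasma, clears drugs and ammonia, and handles lipids and bile acids. A small set of secreted proteins therefore takes much of its messenger RNA, and in mice this set includes the major urinary proteins, small carriers that leave the blood through the kidney and bind pheromones in urine. The liver also holds resident macrophages (Kupffer cells), sinusoidal endothelium, retinoid-storing stellate cells, bile duct cells and passing blood cells, whose transcripts reach a bulk library in small amounts.

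Levels are given on 2 scales. CPM is the deposited count of a gene scaled to a library total of 1000000, and it grows with transcript length. TPM values, deposited by the authors, sum to the same total and are scaled to transcript length, so levels of different genes are compared in TPM. Ranks, thresholds and list sums in CPM describe the counts and are not levels per length. A share is the percentage of all counts or of all TPM of a library.

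The markers named for liver were high in both libraries. Alb, the main plasma protein, had 157483 counts in library 1 and 170776 in library 2, which is 2.07% of counts (95% exact binomial interval 2.06 to 2.08) and 2.13% (2.12 to 2.14). Apoa1, the core protein of high-density lipoprotein, had 95609 and 100175 counts, or 1.26% (1.25 to 1.27) and 1.25% (1.24 to 1.25). Mup20, the urinary pheromone protein also called darcin, had 113602 and 106231 counts, or 1.49% (1.49 to 1.50) and 1.32% (1.31 to 1.33). These intervals cover counting error only, since reads without molecular identifiers are not independent molecules, and for Mup20 and Alb the libraries differed by more than that error. All 15 genes of a hepatocyte list were above 50 CPM, and together they took 10.6% of TPM and 7.48% of counts.

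Few genes took most of the transcript total, and the per-length scale was the more concentrated. The 10 genes with the highest mean TPM took 26.9% of TPM in library 1 and 26.1% in library 2, and the top 100 took 59.9% and 59.6%. By counts, the top 10 took 15.2% and 15.0% and the top 100 took 42.5% in each library. To reach 50% of TPM, 49 genes were needed in library 1 and 50 in library 2, and to reach 50% of counts 175 and 176. At the other end, 28498 genes had no count in either library, 12162 had at least 10 counts in both, and 113 had at least 1000 TPM in both. Across 14434 protein-coding genes above 0 on both scales the Spearman correlation of mean CPM with mean TPM was 0.920, as a description across genes that share the same 2 libraries, yet only 12 genes stood in the top 25 of both.

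**Figure D1:**
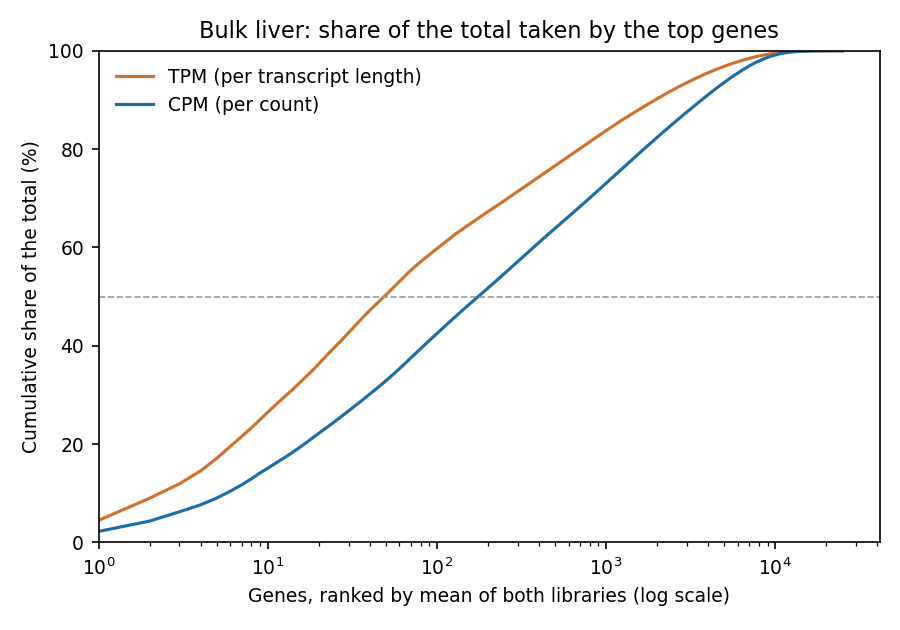
Cumulative share of the total (%) against the number of genes on a log axis, with genes ranked by the mean of both bulk liver libraries, for TPM (orange) and CPM (blue). The dashed line marks 50%, which the TPM curve crosses at about 50 genes and the CPM curve at about 176.

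Major urinary proteins were the largest gene class in TPM. The 22 Mup genes took 26.3% of TPM in library 1 and 25.5% in library 2, but 5.13% and 4.78% of counts. The highest gene of all in TPM was Mup7 (chromosome 4, 60066469 to 60070475, minus strand), with 44352 TPM in library 1 and 45611 in library 2. Next came Mup20 (62050234 to 62054158) with 47269 and 42499 TPM, so the order of these genes differed between the libraries. Mup22 had 29488 and 29130 TPM, Mup10 26580 and 25772, Mup3 26684 and 25298, and Mup14 24073 and 23671. Mup11 with 17558 and 16518 TPM and Mup19 with 15613 and 14315 completed the 8 Mup genes among the 10 highest.

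The counts of the same genes did not follow this order. Mup3 led all genes with 176152 and 174493 counts, and Mup7 had 26172 and 28147. Mup22 had 5 and 2 counts, Mup10 2 and 2, and Mup19 1 and 5, although each was among the 10 highest in TPM. Mup15, at 7045 and 6708 TPM, had 259 and 266 counts. So the family took a similar share of TPM in both libraries, while its split between members differed by scale.

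The Mup genes resemble each other closely. Of the distinct words of 50 bases in the annotated transcripts of Mup3, 86.7% occurred in no other gene of the GENCODE M21 annotation. This share was 49.5% for Mup20, 13.3% for Mup7, 22.2% for Mup11 and 23.5% for Mup10, and 0% for Mup22, Mup19 and Mup15. Its median was 21.3% over the 22 Mup genes, beside 98.0% over the other 152 protein-coding genes among the 200 highest in TPM, with mitochondrially encoded genes left out. A read from such shared sequence cannot be placed on a single gene, so the level of each member with few unique words is uncertain, and how far shared sequence made the scales differ was not tested. With the deposited counts divided by each gene's summed exon length instead, for the 41936 genes of at least 200 bases, the family took 11.3% and 10.6%, which lies between its shares of counts and of TPM.

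Promoter sequences from RefSeq (build GRCm38.p6) are shown for the Mup genes among the 10 highest in TPM that the table holds, and for Alb. Each line gives the 60 bases that end at the base before the annotated start, 5′ to 3′. Capitals mark the TATA element TATATAA in 3 of the Mup genes, and in Alb they mark GTTAAT, part of the recognition sequence of the hepatocyte factor HNF1. The positions are chr4:62087318-62087377 (minus strand) for Mup3, chr4:60582156-60582215 (minus) for Mup10, chr4:61303999-61304058 (minus) for Mup14, chr4:60662396-60662455 (minus) for Mup11, chr4:61782225-61782284 (minus) for Mup19 and chr5:90460810-90460869 (plus) for Alb.
Mup3: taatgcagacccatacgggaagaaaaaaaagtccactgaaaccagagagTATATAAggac
Mup10: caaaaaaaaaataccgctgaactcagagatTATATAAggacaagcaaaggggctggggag
Mup14: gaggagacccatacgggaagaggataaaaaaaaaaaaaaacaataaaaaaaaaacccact
Mup11: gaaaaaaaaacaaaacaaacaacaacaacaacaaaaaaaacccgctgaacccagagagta
Mup19: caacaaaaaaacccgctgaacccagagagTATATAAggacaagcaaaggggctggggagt
Alb: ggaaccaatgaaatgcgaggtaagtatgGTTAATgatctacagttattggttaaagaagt

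The longest run of letters shared by the Mup10 and Mup19 stretches was 30 bases and began with the TATA element, which starts 30 and 31 bases before their annotated starts and 11 before that of Mup3. None of the motifs searched lay in the stretches of Mup14 and Mup11, which stop at the annotated start. The Mup11 stretch ends in letters that in Mup19 run into the TATA element. The Mup14 stretch ends in letters that in Mup3 stand before it. So these stretches do not show that Mup11 and Mup14 lack the element. Of the 50 protein-coding genes with the highest TPM, 33 were matched to 41 promoters of 300 bases. TATATAA, on either strand, was in 26.8% of these 41 promoters, and in 3.24% of all 32851 promoters in the table. Without the Mup genes it was in 9.38% of 32. TATAAA, which is not contained in TATATAA, was in 9 of the 41 and 13.6% of all, and GTTAAT in 19.5% and 7.10%. GGGCGG, the GC box common at widely expressed genes, was in 9 of the 41 and 35.7% of all. A closer background is the 10250 promoters of protein-coding genes with at least 1 TPM in both libraries. In these, TATATAA was in 1.49%, TATAAA in 7.54%, GTTAAT in 4.85% and GGGCGG in 61.8%. Both strands of the 300 bases were searched for each motif. These shares describe letters in a fixed window and do not show binding.

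**Figure D2:**
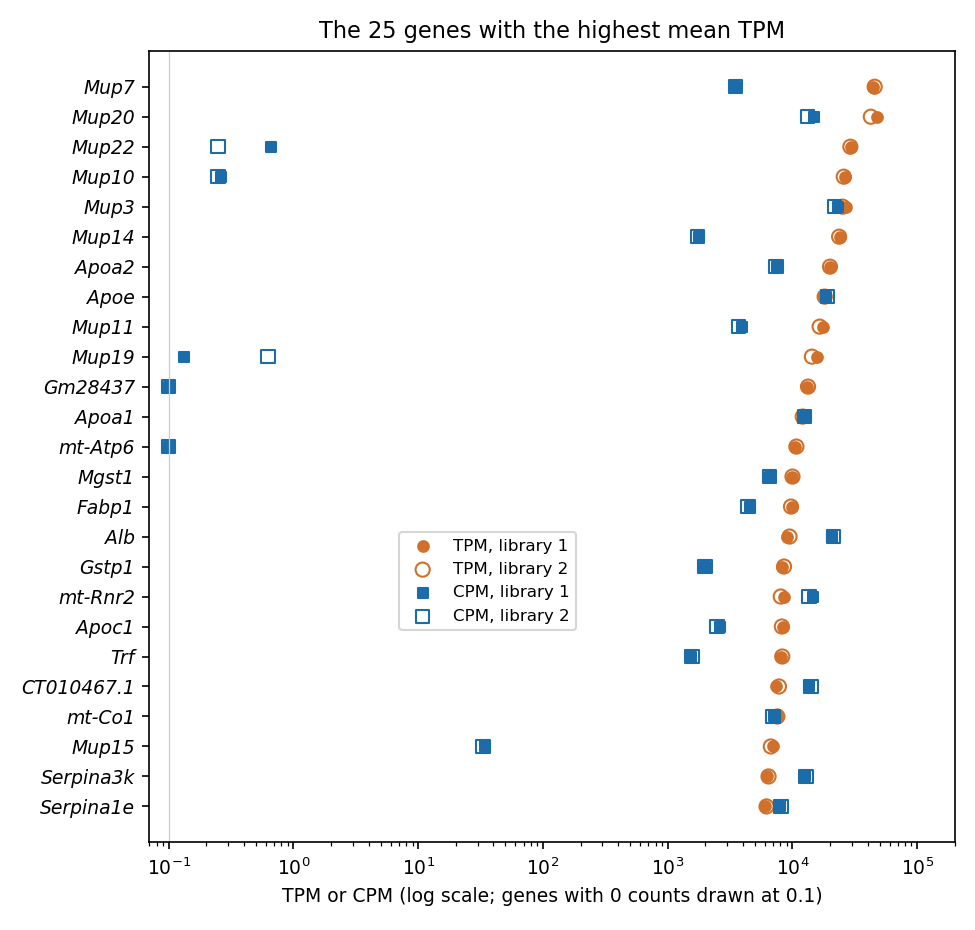
The 25 genes with the highest mean TPM, top to bottom, with TPM (orange circles) and CPM (blue squares) on a log axis and filled and open symbols for libraries 1 and 2. The libraries lie close together in TPM for every gene shown, while Mup22, Mup10, Mup19, Gm28437 and mt-Atp6 have under 1 CPM.

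Apolipoproteins, the protein shell of plasma lipoproteins, were the next class, with 6.68% and 6.74% of TPM and 5.03% and 5.04% of counts. Apoa2, a high-density lipoprotein component, had 19923 and 19993 TPM. Apoe, the ligand by which remnant particles are taken up, had 17554 and 18121. Apoa1 had 12059 and 12084, and Apoc1, an inhibitor of lipoprotein uptake, had 8397 and 8223. The libraries lay within a few percent of each other for all 4, and the 50-base words of Apoa1, Apoa2 and Apoe were 100% unique.

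Albumin and other plasma carriers took 4.62% and 4.69% of TPM and more of the counts, 6.72% and 6.77%. Alb was second by counts but 16th in TPM, at 9125 and 9475. Trf, the iron carrier transferrin, had 8156 and 8281 TPM and only 1544 and 1564 CPM, and 63.5% of its exon bases overlap those of another gene model. Rbp4, the retinol carrier, had 5047 and 5024 TPM, and Ahsg (fetuin-A, an inhibitor of calcification) 4078 and 4107. Gc, the vitamin D carrier, had 4066 and 4006 TPM, and the selenium carrier Selenop 4017 and 4007.

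Serpins, the family of protease inhibitors, took 3.09% and 3.18% of TPM. Serpina3k was the highest, with 6259 and 6431 TPM, followed by the antitrypsin gene Serpina1e with 6069 and 6199 and its close copy Serpina1c with 4788 and 5061. Only 64.6% of the 50-base words of Serpina1e and 16.7% of those of Serpina1c were unique, so their split is uncertain. Serpinc1, which encodes antithrombin, had 3086 and 3088 TPM.

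Clotting and complement proteins were lower in TPM than in counts. Coagulation and fibrinolysis genes took 1.23% and 1.26% of TPM and 2.79% and 2.80% of counts. The 3 fibrinogen chains had 2563 and 2598 TPM (Fgg), 2098 and 2181 (Fga) and 1298 and 1299 (Fgb). Complement took 0.595% and 0.607% of TPM, with C3, its central component, at 513 and 570. Acute phase reactants not placed in another class took 0.324% and 0.337%, led by the iron hormone Hamp with 1233 and 1272 TPM. A wider acute phase list of 25 genes took 1.53% of TPM and 3.12% of counts on average. It includes Hpx, C3 and the fibrinogen chains, which are counted here in other classes. All 7 secreted classes (178 genes) together took 42.9% and 42.3% of TPM and 25.0% and 24.8% of counts, and 16.5% and 16.8% of TPM without the Mup genes.

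**Figure D3:**
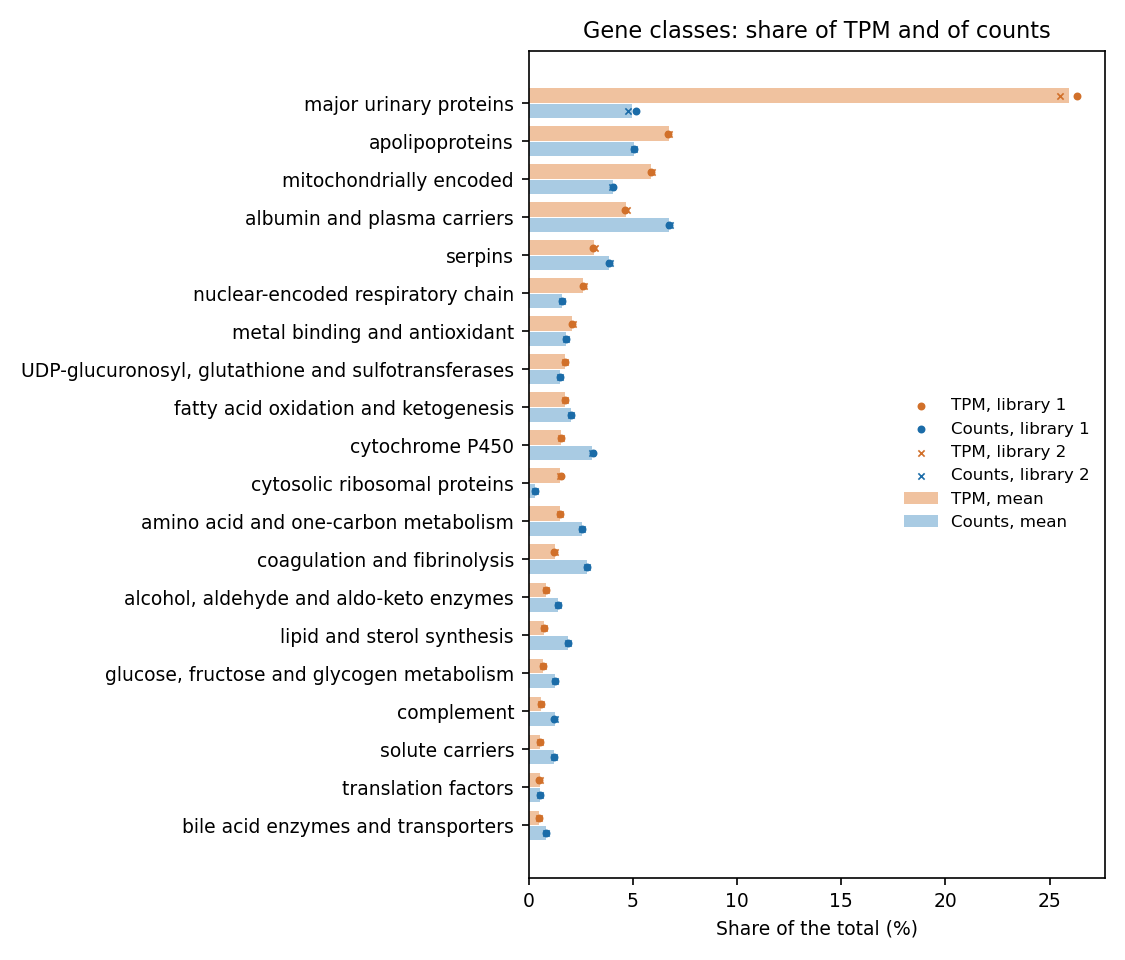
Share of the total (%) taken by the 20 largest named gene classes, with bars for the mean of both libraries, dots for library 1 and crosses for library 2, in TPM (orange) and counts (blue). Major urinary proteins stand at 25.9% of TPM and 4.95% of counts, and albumin and plasma carriers, P450 and coagulation genes are larger in counts than in TPM.

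Mitochondrially encoded transcripts, which specify respiratory chain subunits and the organelle's ribosomal RNA, took 5.86% and 5.89% of TPM and 4.07% and 3.99% of counts. The large ribosomal RNA mt-Rnr2 had 8572 and 8057 TPM, and the oxidase subunit mt-Co1 had 7518 and 7568. The ATP synthase subunits mt-Atp6 (10514 and 10754 TPM) and mt-Atp8 (5873 and 6181), and the oxidase subunits mt-Co2 (5539 and 6092) and mt-Co3 (1341 and 1121), had 0 counts in both libraries. A count of 0 in both allows up to 0.192 CPM of assigned counts over the 2 libraries, by the 3 counts that 0 can hide. It does not bound the level of mt-Atp6, mt-Atp8, mt-Co2 and mt-Co3, given their TPM.

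All of these but mt-Atp8 share 50-base words with annotated nuclear pseudogenes. Only annotated transcripts were searched, so a nuclear copy of mt-Atp8 outside them would not be seen. The pseudogene Gm28437 on chromosome 1 had 12962 and 13328 TPM, 11th among all genes, and 0 counts, and shared its words with mt-Co3 alone. Unique 50-base words made up 0.475% of mt-Atp6, 0% of mt-Co2 and 0.136% of mt-Co3, against 100% of mt-Cytb and 100% of mt-Atp8, of which 21.1% overlaps mt-Atp6 on the genome. The window of chromosome 1 from 24000001 to 25000000, which holds Gm28437 and similar pseudogenes, took 2.43% and 2.496% of TPM. It took 0.0102% of counts on average, so almost all of its TPM came without assigned counts.

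Nuclear genes of the respiratory chain took 2.61% and 2.64% of TPM over 96 genes, with no dominant member: Atp5b, the catalytic subunit of ATP synthase, was highest at 1248 and 1265 TPM. Metal-binding and antioxidant genes took 2.06% and 2.10%, led by the ferritin light chain Ftl1 with 5513 and 5684 TPM. The peroxidase Gpx1 had 3010 and 3218. Mgst1, a microsomal glutathione transferase outside the named classes, had 9964 and 10005 TPM, 14th of all genes.

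Drug and steroid metabolism was spread over many enzymes. The 98 cytochrome P450 genes took 1.53% and 1.54% of TPM and 3.06% and 3.05% of counts, and 53 of them reached 1 TPM in both libraries. Cyp3a11, a broad drug oxidase, held 24.4% of the class TPM with 3726 and 3768. Cyp2e1, which oxidises ethanol, had 1840 and 1749 TPM, and Cyp2f2 had 1144 and 1207. Conjugating enzymes (glucuronosyl, glutathione and sulfotransferases) took 1.74% and 1.76% of TPM, of which Gstp1, at 8306 and 8561, made up 48.3%.

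Among enzymes of intermediary metabolism, Fabp1, the fatty acid carrier of the liver cytosol, was the highest with 9910 and 9737 TPM. It held 56.3% of the class of fatty acid oxidation and ketogenesis, which took 1.74% and 1.75%. Amino acid and one-carbon metabolism took 1.48% and 1.52%, with the methyltransferases Gnmt at 1869 and 2023 TPM and Bhmt at 1798 and 1841. The lipid desaturase Scd1 had 1108 and 1092 TPM. Urea cycle genes took only 0.271% and 0.287%, with Arg1, the last enzyme of the cycle, at 708 and 754 TPM. The 44 genes of lipid and sterol synthesis, all above 1 TPM in both libraries, took 0.710% and 0.715% of TPM and 1.87% and 1.86% of counts.

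Cytosolic ribosomal proteins took 1.54% and 1.50% of TPM and only 0.313% and 0.307% of counts. Gapdh, the glycolytic enzyme often used as a reference gene, had 493 and 538 TPM but 53 and 58 counts. Of its 50-base words 74.9% were unique, and the rest occurred in transcripts of 223 other genes. Hsd3b7, an enzyme of bile acid synthesis, had 452 and 424 TPM but 5.00 and 3.98 CPM, and 99.2% of its exon bases overlap those of other genes. For these genes the count and the TPM differ by more than any spread between the libraries, and the part of shared or overlapping sequence in that was not tested.

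Long transcripts moved the other way. Fasn, the fatty acid synthase, with 10947 exon bases, was 177th by CPM (697 and 797) and 1101st in TPM (87.3 and 92.0). The lysosomal protease gene Ctsb was 195th by CPM and 851st in TPM, and the collagen gene Col18a1 183rd and 747th. Cps1, which starts the urea cycle, was 84th by CPM and 393rd in TPM. The median exon length was 1432 bases over the 50 protein-coding genes highest in TPM and 4311 over all 14434 above 0. Over the 50 highest by CPM it was 2075, so the top genes were short on both scales.

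Non-coding RNA was led by ribosomal RNA. CT010467.1, a ribosomal RNA gene on chromosome 17, had 103147 and 113324 counts, and 7381 and 7795 TPM. Genes annotated as cytosolic rRNA took 1.36% and 1.41% of counts. The chromosome 17 window from 39000001 to 40000000, with CT010467.1 and overlapping gene models of other annotation, took 1.94% of counts on average. Gm23935, a 57-base gene annotated as a miRNA, had 68287 and 79345 counts and was listed at 0 TPM, and all of its words occur in other genes too. Mir6236, with 19906 and 20878 counts, was also listed at 0 TPM. All genes at 0 TPM took 1.51% and 1.60% of counts, and all genes with no count took 5.46% and 5.58% of TPM. Part of each scale therefore had no counterpart on the other. Malat1, a nuclear-retained RNA, had 3018 and 2935 TPM.

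By position, chromosome 4 held 29.3% and 28.5% of TPM and 9.52% and 9.19% of counts, more than any other chromosome on either scale. Its windows from 60000001 to 61000000, 61000001 to 62000000 and 62000001 to 63000000 took 13%, 5.69% and 7.27% of TPM on average, and the Mup genes led in each. The window of chromosome 7 from 19000001 to 20000000, with the neighbours Apoe and Apoc1, took 2.87%, and that of chromosome 12 from 103000001 to 104000000, with the Serpina1 genes, 2.11%. The 10 richest of 2672 windows that hold a gene took 44.0% of TPM.

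Zone markers of the liver lobule were present for both poles. Periportal genes act near the incoming blood, in urea and glucose production, and pericentral genes near the central vein, in drug oxidation and glutamine synthesis. In all, 19 of 20 periportal and 13 of 21 pericentral list members were above 50 CPM. Of the members above 20 CPM, 16 of 19 periportal genes were higher in library 2, with a median log2 ratio of 0.07. For pericentral genes it was 4 of 16, with a median of -0.05. Over all 5303 genes above 20 CPM, 2660 were higher in library 2 and the median was 0.00. Ass1, a urea cycle enzyme, had 447 and 502 CPM, and Cyp2e1 3560 and 3343, so the differences were small, in a pair of libraries with no replicate of the comparison.

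Genes that differ between the sexes in mouse liver lay mostly to the male side. All 15 genes of the male-biased list were detected with 10 counts in both libraries, 14 above 50 CPM, and they took 12.7% of TPM, mostly through Mup20, Mup7 and Mup3, which are shared with the Mup class. Cyp2d9, a male-biased P450, had 897 and 933 TPM, and Cyp4a12a 359 and 358. Of the 19 female-biased genes, 6 (Cyp2b9, Cyp2b13, Cyp3a41a, Sult2a1, Sult3a1 and Hao2) had 0 counts in both libraries and 8 others under 10 in at least 1. The exception above 50 CPM was Cyp4a10, at 140 and 162. In TPM, which can be above 0 where counts are 0, the female-biased list summed to 92.3 and 102.6. The Y-linked translation factor gene Eif2s3y had 506 and 465 counts and Ddx3y 445 and 433, while Xist, the RNA that coats the inactive X, had 0 and 2.

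Hepatocyte transcription factors were low but complete. All 32 had at least 10 counts in both libraries, and together they took 0.126% of TPM. Xbp1, a factor of the secretory pathway, had 177 and 174 TPM. Hnf4a, a master regulator of hepatocyte genes, had 73.0 and 85.9 TPM, and Mlxipl, which responds to glucose, 141 and 143.

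The libraries differed little. With log2(CPM + 0.5) of library 2 minus library 1, 0 of 5303 genes with a mean of at least 20 CPM were past 2-fold (0% called), and 3 (0.0566%) were past 1.5-fold. There is no test here, as each side is 1 library of the same group. The spread was still above counting noise: the chi-square per gene was 1.52 over 13886 genes with 10 or more counts in sum, where counting alone gives about unity. The variation beyond counting was 3.29% of the level at 20 to 100 CPM and 2.55% above 2000 CPM.

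**Figure D4:**
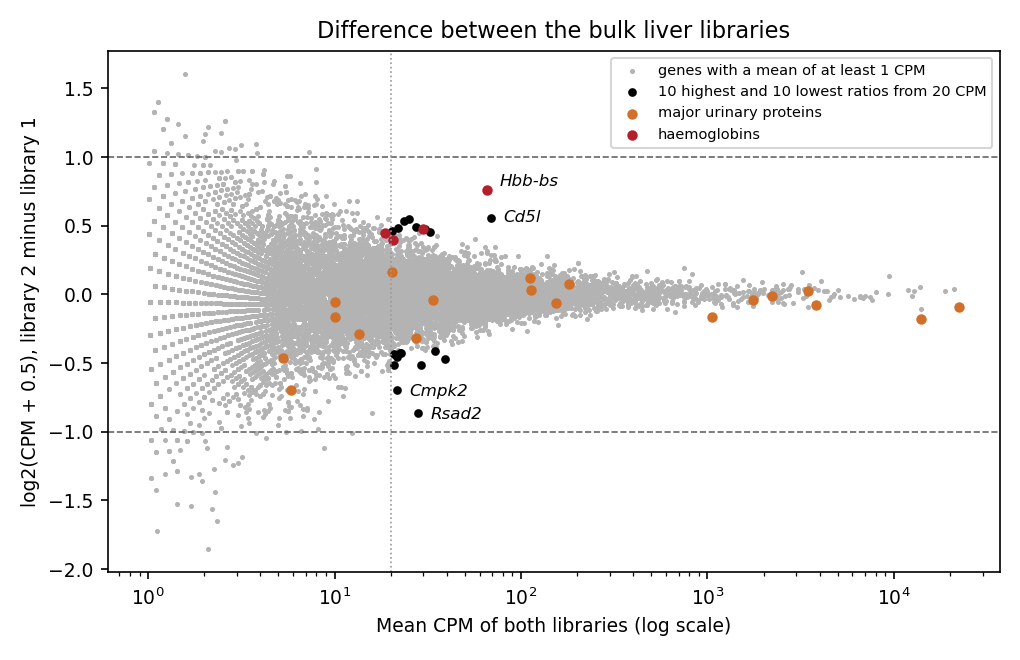
log2(CPM + 0.5) of library 2 minus library 1 against mean CPM on a log axis, for genes with a mean of at least 1 CPM. Dashed lines mark 2-fold and the dotted line 20 CPM; no gene to the right of it passes 2-fold, and among these genes Hbb-bs (0.76) and Rsad2 (-0.86) lie farthest out.

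The globin gene Hbb-bs and Cd5l led the differences toward library 2. Hbb-bs, a beta-globin, had 368 counts in library 1 and 662 in library 2, or 48.4 and 82.4 CPM (log2 difference 0.76). Cd5l, a protein secreted by tissue macrophages, had 425 and 663 counts (0.56). Hba-a1, an alpha-globin, had 190 and 281 (0.48). The other genes named on that side (Gemin7, Fam98a, Fitm1, Vars2, Zfp335, Tfe3 and Itga5) lay between 0.44 and 0.55, each under 40 CPM, where counting error is larger.

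Rsad2 and Cmpk2, both known to be induced by interferon, led toward library 1. Rsad2, the antiviral enzyme viperin, had 277 and 159 counts (log2 difference -0.86), and its chromosome 12 neighbour Cmpk2, a mitochondrial nucleotide kinase, had 203 and 131 (-0.69). Next were Nbeal1 (-0.52), the chaperone gene Vbp1 (-0.51) and Abhd17b (-0.47). Prkag2, Clec14a, Mapk15 and Use1 lay between -0.44 and -0.41.

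Markers of cells other than hepatocytes made up little of either library. They are only part of the RNA of those cells, so their sum does not give the share of such cells in the libraries. The 22 lists of such markers held 342 distinct genes, which took 0.930% and 0.944% of counts and 0.563% and 0.597% of TPM. A single adipocyte marker that hepatocytes also express, Car3, made up much of this, and without it the shares were 0.454% and 0.471% of counts and 0.286% and 0.324% of TPM. These shares still hold other genes that hepatocytes express, such as Slc40a1, Sdc1, Dpp4 and Apoa4, and 5 members also stood in a hepatocyte list. Of the 342 genes, 29 had at least 50 CPM, 127 (37.1%) met the rule for low but reproducible transcripts, 120 had under 10 counts in 1 or both libraries, and 66 had no count. The rule asks for at least 10 counts in each library, a mean under 50 CPM and less than 2-fold between the libraries. All 127 that met the first 2 terms also met the last, beside 99.4% of all 9605 genes that did, so the agreement is that of any gene at this level. Their median level was 9.57 CPM, from 1.28 to 48.4, and their median absolute log2 difference was 0.22, where counting alone would give about 0.16. In bulk tissue, fewer cells of a type and less RNA per cell cannot be told apart.

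At the edges of the rule, Itga2b (10 and 10 counts), Ube2c (11 and 11) and Eln (12 and 10) were just inside, and Cd4 and Jchain (15 and 9 each) and Cd79b (9 and 19) just outside. At the upper edge, Fcgr2b (39.6 and 39.7 CPM), C1qa (42.1 and 50.3) and Vsig4 (47.3 and 49.5) were inside. Eng (52.9 and 54.4 CPM), Prox1 (57.6 and 50.5) and Sparc (62.1 and 52.8) were outside.

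**Figure D5:**
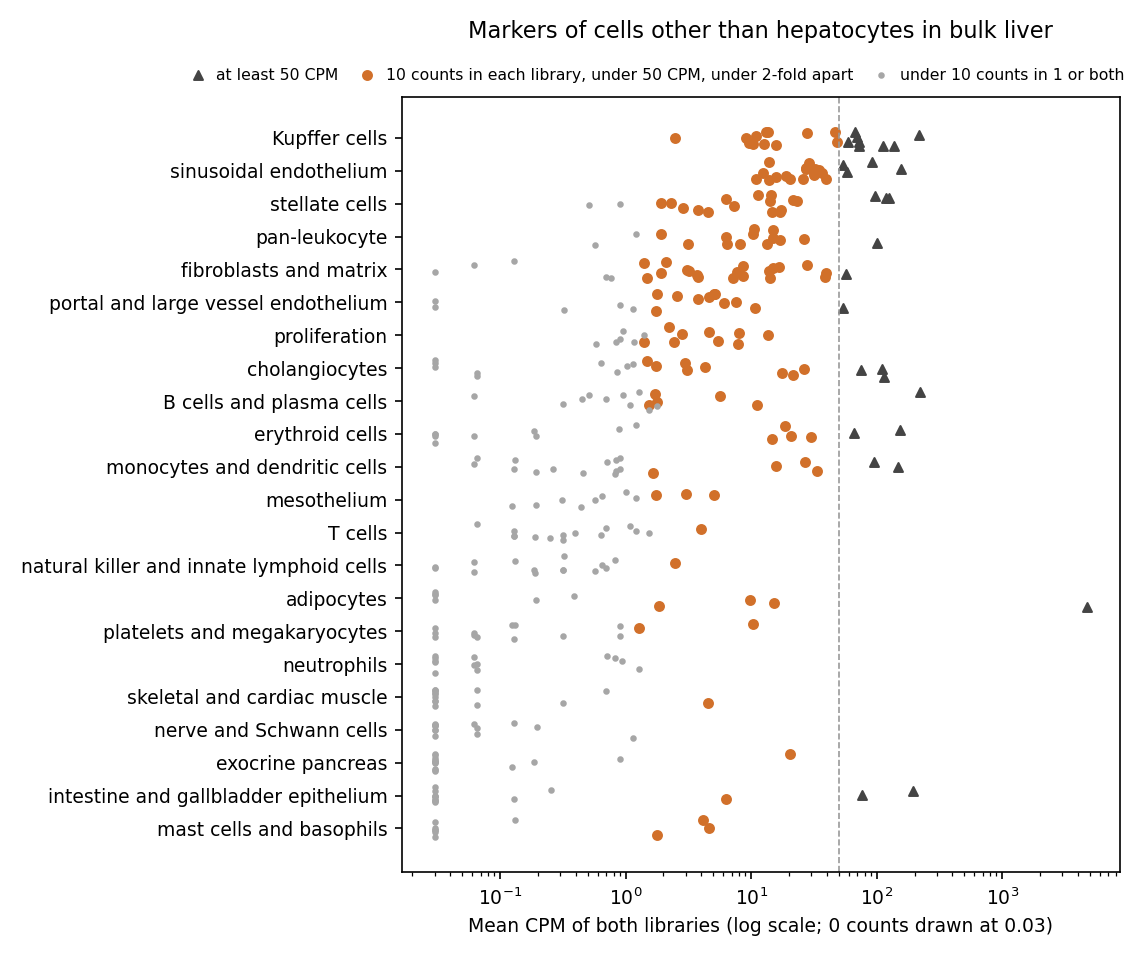
Mean CPM on a log axis of each marker in the 22 lists of cells other than hepatocytes, as triangles for at least 50 CPM, orange dots for low but reproducible genes and grey dots for under 10 counts in at least 1 library. Lists are ordered by median, and the Kupffer and sinusoidal endothelium lists have no grey dot.

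Kupffer cell genes had the highest median of these lists, at 14.8 TPM, followed by sinusoidal endothelium at 6.75 TPM. Of 20, 8 were above 50 CPM and the other 12 were low and reproducible, and the list summed to 961 CPM in library 1 and 1100 in library 2. Clec4f, a lectin of Kupffer cells, had 948 and 1216 counts (125 and 151 CPM). The growth factor receptor gene Csf1r had 488 and 655, and the complement gene C1qb 490 and 634. Slc40a1, the iron exporter, had 1594 and 1836, but it and Nr1h3 (110 and 116 CPM) are expressed by hepatocytes too. Of the 11 members above 20 CPM, 9 were higher in library 2 (median log2 ratio 0.12). The globins and most periportal genes were also higher there, and whether these shifts go together was not tested.

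Antigen-presenting and general leukocyte genes were also detected. Lyz2, lysozyme of myeloid cells, had 1108 and 1206 counts, and Cd74, the chaperone of MHC class II, 713 and 777. H2-Ab1, a class II chain, had 231 and 289. Lcp1, an actin bundler of leukocytes, had 712 and 856. Of the 15 general leukocyte genes, 12 were low and reproducible, with Laptm5 at 195 and 218 counts and Tyrobp at 97 and 137. By contrast, 13 of the 19 monocyte and dendritic cell genes had under 10 counts in at least 1 library.

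Lymphocyte and granulocyte genes were near the limit of detection. The T cell list summed to 9.99 and 12.2 CPM, with Tcf7 (27 and 36 counts) alone meeting the rule. The natural killer list summed to 5.13 and 8.46 CPM, with Klrk1 (13 and 26 counts), which sits at the ratio limit, alone meeting it, and Prf1 and Eomes had no count. For neutrophils the sums were 3.16 and 4.85 CPM, no member met the rule, and Ly6g, Camp, Ltf, Elane and Mpo had no count. Among B cell genes, Ighm, the IgM heavy chain, had 82 and 93 counts and Igkc 38 and 51. Sdc1, at 1683 and 1799, is a syndecan of hepatocytes as well as plasma cells. Cpa3, Mcpt4, Cma1, Tpsb2, Ms4a2 and Fcer1a of the mast cell and basophil list had no count.

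Sinusoidal endothelium, the fenestrated lining of liver capillaries, was detected throughout: 4 of 21 genes were above 50 CPM and 17 were low and reproducible. The list summed to 779.6 and 782.5 CPM. Clec4g, a lectin of these cells, had 448 and 457 counts, Ehd3 692 and 735, Eng 402 and 437 and Oit3 301 and 270. Dpp4, with 1204 and 1235, is also a hepatocyte gene. Genes of portal and large vessels summed to 110 and 101 CPM, of which Prox1, also a hepatocyte factor, made up 57.6 and 50.5. Selp had 79 and 88 counts, and Rspo3, a Wnt co-activator of central vein endothelium, 69 and 49.

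Stellate cell genes summed to 516 and 491 CPM, with 15 of 20 low and reproducible. Dcn, a matrix proteoglycan, had 956 and 881 counts, and Ecm1 731 and 771. The lectin gene Colec11 had 165 and 173. Among matrix genes, Col3a1 had 323 and 287 counts, Gas6 306 and 300, Col4a1 218 and 219 and Sparc 472 and 424. All 4 matrix genes above 20 CPM were lower in library 2 (median log2 ratio -0.17).

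Bile duct genes were seen at low levels and only in part. Of 20, 3 were above 50 CPM and 8 were low and reproducible. Another 6 had under 10 counts in at least 1 library, and 3 had no count. Spp1, osteopontin, had 889 and 835 counts, Aqp1, a water channel also of endothelium, 600 and 579, and Cdh1, also periportal, 808 and 970. Sox9, a factor of bile duct cells, had 132 and 145 counts, while Tff2 and Ggt1 had none. The mesothelium list, for the cells that cover the organ, summed to 13.7 and 15.1 CPM, with Podxl at 33 and 47 counts.

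Erythroid genes summed to 273 and 339 CPM and were all higher in library 2 among the 4 above 20 CPM (median log2 ratio 0.44). The 4 adult globins together took 0.0107% and 0.0162% of counts. Alas2, which starts haem synthesis in red cells, had 1129 and 1286 counts, more than any globin. It was the largest part of the list sum, so that sum is not one of globins alone. Epb42, Gata1, Hemgn and Rhag had no count. Since the globins are near copies, with 10.7% unique words in Hba-a2 and 46.8% in Hbb-bs, the level of each is less certain than their sum. Platelet genes summed to 13.9 and 14.6 CPM, of which Clec1b, also a Kupffer cell gene, made up 9.99 and 10.6.

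Markers of tissues next to the liver were mostly absent. Of 15 exocrine pancreas genes, 11 had no count, and Cela1, at 154 and 166 counts, was the exception. Of 14 intestine and gallbladder genes, 9 had no count, while Apoa4 (1518 and 1526) and Fabp2 (614 and 581) are hepatocyte genes too. In the muscle list 9 of 14 had no count, and Des, shared with stellate cells, had 33 and 38. Adipoq, Plin1, Lep and Retn of the adipocyte list had no count, although Car3, a carbonic anhydrase also of hepatocytes, had 36225 and 38016. In the nerve list 7 of 13 had no count and none met the rule. Proliferation genes summed to 47.3 and 60.7 CPM, with Pcna, a replication clamp, at 101 and 111 counts and Rrm2, a subunit of ribonucleotide reductase, at 43 and 83.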

How the data were processed

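RNA-seq of the 2 bulk liver libraries was described without a test, since they form 1 group. The authors deposited raw counts per gene (whole numbers, not normalised), TPM values that sum to 1000000 per library, and a variance-stabilised score per gene. The build was GRCm38 and the tools were DESeq2 1.34.0, FastQC 0.11.5, featureCounts 1.5.1, RSEM 1.3.0 and STAR 2.5.2b, as listed in the submitters' processing notes. What each tool made, the annotation release and the strand setting are not given in the sources used here. Overlapping genes therefore cannot be told apart by strand.

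Symbols were matched for 48348 of 48794 IDs (446 had none), and positions came from GENCODE M21 for 48434. CPM are counts over the library total, which was 7605290 and 8034138. Library ratios used a pseudocount of 0.5 CPM and genes with a mean of at least 20 CPM. TMM factors came from edgeR 4.0.16 in R 4.3.3, and all else from Python 3.11.15 with pandas 2.3.3. The spread estimate was tested on simulated data. Genes were put in 25 classes, each counted once, and in 35 lists of 612 entries, of which 3 were unmatched. A total of 5 non-hepatocyte members also stood in a hepatocyte list.

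Members and lists were chosen with earlier results of these data known. Named genes were the 25 highest on each scale, the top 4 of a class in TPM, the top 6 of a list in CPM and its members without counts, the genes with the largest rank changes, those highest on 1 scale and absent on the other, the 6 highest non-coding genes, and the 10 largest library ratios per direction. Gene models known only by a number are named only among the 25 highest. Genes named at the edges of the rule for low transcripts, members of the proliferation and cell type lists given as shared with other cells, and the 50-base word comparison were chosen after their values were seen. Some genes that the rule would name are not reported here.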

Additional observations from a re-analysis of the deposited data

How the results depend on the processing

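No paired analysis was possible because both libraries belong to 1 group. Shares depended on the scale. The share of the top 10 genes was 15.1% by CPM, 26.5% by TPM, 15.2% without mitochondrially encoded genes, and, without Mup genes, 13.8% by CPM and 16.1% by TPM. For the top 100 these were 42.5%, 59.8%, 41.3%, 40.5% and 48.1%. By counts in place of TPM the class shares were 4.03% (mitochondrially encoded), 6.74% (carriers), 5.03% (apolipoproteins), 4.95% (Mup) and 3.06% (P450), and by counts per exon length 7.07%, 7.72%, 9.36%, 10.9% and 2.58%. Without mitochondrially encoded genes the TPM shares were 4.95% (carriers), 7.13% (apolipoproteins), 27.5% (Mup) and 1.63% (P450). Without Mup genes they were 7.93% (mitochondrially encoded), 6.29% (carriers), 9.06% (apolipoproteins) and 2.07% (P450). The scalings without Mup genes and by exon length were chosen after seeing the data. With either library alone, the Mup share was 25.5% to 26.3% and the top 10 took 15.0% to 15.2% of counts.

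Past 2-fold between the libraries were 0 genes on the main scale, with TMM factors, with a pseudocount of 5 CPM and from 100 CPM. There were 8 in TPM, 3 in the deposited variance-stabilised values and 4 from 5 CPM. Low but reproducible markers numbered from 88 (at least 30 counts) to 182 (under 50 TPM), beside 127. The setting in TPM asked only for TPM above 0 in both libraries, with no minimum of counts. Without Car3, a choice made after seeing the data, markers of cells other than hepatocytes, some expressed by hepatocytes, took 0.462% of counts, beside 0.937%. The causes were not tested. Depth limits single markers: 10 counts are about 1.3 CPM here.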

Other observations

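Hormones and growth factors made by the liver had counts for 24 of 25 list members, and Epo had no count. Igfbp4 and Igfbp2, which bind insulin-like growth factors, had 620 and 647 TPM and 405 and 435 TPM in libraries 1 and 2. Igf1 had 336 and 349 TPM, and Agt, the precursor of angiotensin, 258 and 264.

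All 20 circadian clock genes had counts, 5 of them above 50 CPM. Nr1d1, a clock repressor, had 110 and 107 CPM, and Rora had 729 and 783 counts and Bhlhe40 608 and 588. Of the 13 clock genes above 20 CPM, 4 were higher in library 2, with a median log2 ratio of -0.08. Among immediate early and heat shock genes the chaperone Hspa8 had 338 and 317 TPM and Hsp90aa1 262 and 271, and Fosb had no count. Hsph1, another chaperone, had 371 and 520 counts.

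Genes of sterol synthesis and uptake took 0.244% of TPM, led by Sc5d with 494.5 and 483.5 TPM. Insig1, a brake on sterol synthesis, had 290.15 and 290.06 TPM. Of the 19 members above 20 CPM, 7 were higher in library 2, with a median log2 ratio of -0.01. Fasting and feeding genes were both present: Pck1, of glucose production, had 417 and 424 TPM, and the lipogenic gene Thrsp 382 and 416.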
